A study of Mus musculus with 9 samples.

Results

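Endothelial cells, which line the blood vessels between the seminiferous tubules, were examined in single-cell RNA-seq of whole testis from mice at postnatal day 24 (PND24). A barcode was taken as an endothelial cell when it held a UMI (a unique molecular identifier, counted once per captured transcript) in at least 3 of the 7 genes Vwf, Tie1, Tek, Ly6c1, Ptprb, Pecam1 and Cdh5, and when these 7 genes made up at least 0.1% of its UMIs. Of the 45132 barcodes that had UMIs in over 1000 genes, with mitochondrial UMIs below 10%, 155 met this rule. They came from 9 mice, with 1 library per mouse. The 4 controls gave 54 cells, the NELF-B cKO (2 mice) gave 28 and the TDP-43 cKO (3 mice) gave 73. All mice were labelled C57BL/6. Per the study's methods, the cKO mice carried 1 floxed and 1 null allele of Nelfb or Tardbp and the Stra8-iCre transgene, which deletes exons 1–4 of Nelfb or exon 3 of Tardbp in spermatogonia (SG) from PND4. The driver is a germ cell driver, so that the endothelial cells of a cKO mouse are not its target but carry the null allele, and they surround tubules that hold other germ cells than those of a control mouse. The controls were littermates or non-littermates, and their alleles at the 2 loci are not given in the labels.

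Endothelial cells hold together through VE-cadherin (Cdh5), PECAM-1 (Pecam1) and claudin-5 (Cldn5), and they read vascular growth signals through the VEGF receptors Kdr and Flt1 and the angiopoietin receptor Tek. Capillaries differ between organs: some are fenestrated and permeable, whereas others form a barrier that rests on tight junctions, efflux pumps and selective carriers. In the rodent testis the capillaries lie in the interstitium beside Leydig cells and are mostly of the non-fenestrated kind.

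The cells numbered 10, 10, 11 and 23 per control, 17 and 11 per NELF-B cKO mouse, and 30, 12 and 31 per TDP-43 cKO mouse. Their median depth was 15321 UMIs, and the summed counts behind each mouse ranged from 90636 to 630270 UMIs. Levels are given as CPM, a gene's share of the summed UMIs of a mouse's endothelial cells scaled to a total of 1000000. The libraries count transcript 3′ ends, so that levels of different genes were compared without division by length. No barcode was an endothelial cell in more than 1 library. In the labelled tissue, 87 of the 155 cells held all 7 markers, 123 held 6 or 7, and 10 held exactly 3. The 3 cells nearest to the limit had 0.123%, 0.132% and 0.139% of their UMIs in the markers, against a median of 0.359%. Outside the limit lay 201 barcodes with at least 3 markers but a lower share, the highest of which was 0.0972%. Their median share was 0.00883% at a median depth of 54355 UMIs.

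The genes of the rule set the levels below which no cell was kept, so they are given as a description. Ly6c1, a surface protein of the Ly6 family, was at 1052 CPM in the median mouse, and its near-identical copy Ly6c2 had no UMI. The vascular phosphatase gene Ptprb was at 840 CPM, Cdh5 at 564 CPM and Pecam1 at 440 CPM. Vwf, which encodes the platelet-binding von Willebrand factor, was at 367 CPM, and the receptors Tek and Tie1 were at 246 and 149 CPM. In the other barcodes past the filter the same 7 genes were at 0.384 to 5.58 CPM. Each marker was present in every mouse, and the lowest value of any of them in any mouse was 121 CPM, for Tie1.

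Genes outside the rule were ranked by the ratio of their level to that in the other barcodes. Among genes with at least 50 CPM in every mouse, the 20 with the highest ratio were led by Myct1, Abcb1a, Cldn5, Ctla2a and Adgrl4. Cldn5, the tight junction protein of vessels, was at 2258, 2959, 2198 and 1664 CPM in controls, 2162 and 1997 CPM in the NELF-B cKO and 1609, 2506 and 2144 CPM in the TDP-43 cKO. The values of the 3 genotypes overlapped, and the other barcodes held 1.06 CPM. Abcb1a, which encodes the efflux pump P-glycoprotein, was at 492, 778, 564 and 523 CPM in controls, 612 and 618 CPM in the NELF-B cKO and 577, 476 and 498 CPM in the TDP-43 cKO. In all other barcodes it was at 0.297 CPM. The next in order were Zfp366, Emcn, C130074G19Rik, Gimap6, Cd93, Esam, Slco1a4, Icam2, Gimap4, Kdr, Eng, Mecom, Tm4sf1, Ecscr and Mal. Their median levels ran from 84.1 CPM for Gimap4, a GTPase gene, to 869 CPM for Eng, the TGF-beta co-receptor endoglin. All 155 cells were chosen on endothelial genes, so these enrichments carry no test.

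**Figure D1:**
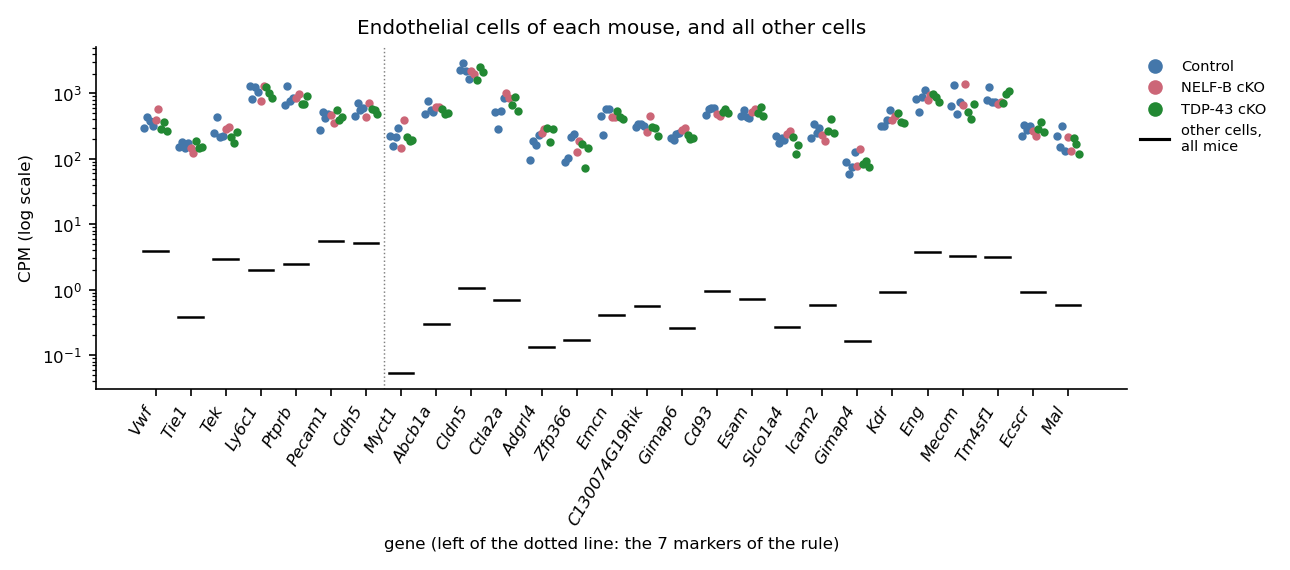
Level of the 7 markers of the rule and of the 20 most enriched other genes in the endothelial cells of each mouse (points, coloured by genotype) and in all other barcodes past the filter (black bars), in CPM on a log axis. The points of every gene lie far above its bar, and the colours overlap.

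Promoter windows of 5 of these genes are shown because the cells were picked on their transcripts (Tie1, Tek) or because they carry the junction and transporter features described next (Cldn5, Abcb1a, Slco1a4). Each window spans 250 bases before to 50 after the transcription start (RefSeq, GRCm38.p6), 5′ to 3′ on the gene's strand. Capitals mark AGGAAG or its reverse complement CTTCCT, a sequence that factors of the ETS family, among them the endothelial regulators Erg and Fli1, are known to bind. Other sequences that these factors may bind were not searched or marked. The windows are Tie1 at chr4:118489800-118490099 (minus strand), Tek at chr4:94739039-94739338 (plus), Cldn5 at chr16:18776597-18776896 (plus), Abcb1a at chr5:8566841-8567140 (plus) and Slco1a4 at chr6:141856171-141856470 (minus).
Tie1: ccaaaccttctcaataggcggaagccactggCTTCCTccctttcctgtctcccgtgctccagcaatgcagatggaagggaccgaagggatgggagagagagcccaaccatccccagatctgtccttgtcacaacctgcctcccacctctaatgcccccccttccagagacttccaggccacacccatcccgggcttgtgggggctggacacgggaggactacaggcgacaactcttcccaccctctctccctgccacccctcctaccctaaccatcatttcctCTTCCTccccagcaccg
Tek: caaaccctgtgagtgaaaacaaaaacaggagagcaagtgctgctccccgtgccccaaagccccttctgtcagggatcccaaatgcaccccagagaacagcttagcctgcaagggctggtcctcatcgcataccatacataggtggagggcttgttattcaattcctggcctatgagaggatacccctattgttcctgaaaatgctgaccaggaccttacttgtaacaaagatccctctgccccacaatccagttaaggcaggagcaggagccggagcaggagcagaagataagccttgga
Cldn5: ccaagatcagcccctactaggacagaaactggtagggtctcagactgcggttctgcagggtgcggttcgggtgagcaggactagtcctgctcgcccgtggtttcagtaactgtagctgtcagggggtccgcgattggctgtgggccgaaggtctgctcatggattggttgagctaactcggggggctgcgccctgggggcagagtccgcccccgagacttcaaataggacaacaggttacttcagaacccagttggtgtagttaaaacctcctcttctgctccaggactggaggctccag
Abcb1a: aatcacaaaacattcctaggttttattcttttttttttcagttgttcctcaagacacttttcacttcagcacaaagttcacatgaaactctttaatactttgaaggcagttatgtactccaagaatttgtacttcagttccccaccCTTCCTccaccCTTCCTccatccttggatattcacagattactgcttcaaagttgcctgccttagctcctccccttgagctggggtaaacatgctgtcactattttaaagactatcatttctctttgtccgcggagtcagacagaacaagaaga
Slco1a4: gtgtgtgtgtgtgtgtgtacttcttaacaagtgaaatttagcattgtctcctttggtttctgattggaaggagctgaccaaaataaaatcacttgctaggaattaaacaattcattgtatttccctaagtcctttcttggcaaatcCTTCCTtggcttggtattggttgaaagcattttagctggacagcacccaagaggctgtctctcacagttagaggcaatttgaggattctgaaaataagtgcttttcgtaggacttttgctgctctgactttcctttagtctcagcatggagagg
The windows of Tie1 and Abcb1a each held 2 copies of CTTCCT and that of Slco1a4 held 1, whereas Tek and Cldn5 held none. Of the 27 genes made up of the rule and the 20 most enriched, 18 had a promoter window, and 12 of these 18 held the 6-base motif on either strand. Among 27025 gene symbols with a window, where no chromosome was left out, 38.4% held it. A match describes the letters of this window and says nothing of binding.

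Of 31 pan-endothelial genes, 28 were above the other barcodes in every mouse, where 9.54% of all 19731 genes with a UMI in these cells were. The highest were Cldn5, Ly6e at 984 CPM, Eng at 869 CPM and Tm4sf1 at 745 CPM. The exceptions included Plvap, the diaphragm protein of fenestrated capillaries, and the water channel gene Aqp1, both with a median of 0 CPM. Per cell, the summed list had a median of 12360 CPM, and 4 of the 155 cells were under 3000 CPM. The lowest, a cell of NELF-B cKO mouse 1 with 9611 UMIs and 3 of the 7 markers, was at 520.2 CPM. Of 20 transcription factor genes, 17 were above the other barcodes in every mouse. The flow-responsive factor gene Klf2 was at 733 CPM, the hypoxia factor gene Epas1 at 624 CPM, Klf4 at 449 CPM and the ETS factor gene Fli1 at 404 CPM. Lower in the list, Erg and the SOX factor genes Sox17 and Sox18 were at 258, 249 and 218 CPM.

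Receptors and ligands of the vascular growth factors were measured side by side. The VEGF receptor genes Flt1 and Kdr were at 880 and 385 CPM, and the co-receptor genes Nrp1 and Nrp2 at 472 and 88.1 CPM. The ligand genes Vegfa, Vegfb and Vegfd were at 39.7, 25.02 and 7.82 CPM. Vegfc, the ligand of Flt4, was at 55.2 CPM and ranged from 8.79 to 641 CPM between mice. Of the Tie receptors' own ligands, Angpt1 was at 46.0 CPM, Angpt2 at 34.9 CPM and Angpt4 at 0 CPM. In the Notch pathway the ligand gene Dll4 was at 138 CPM, the receptor gene Notch1 at 145 CPM, the target gene Hes1 at 216 CPM and Notch3, a receptor of mural cells, at 92.1 CPM. Without the 60 cells that held at least 3 pericyte genes, pooled Vegfc went from 124 to 57.6 CPM and pooled Notch3 from 93.5 to 5.76 CPM. Pooled Angpt2 went from 36.7 to 11.5 CPM and pooled Angpt1 from 54.8 to 43.6 CPM. In contrast, pooled Flt1 rose from 857 to 1027 CPM and pooled Kdr from 428 to 463 CPM. Notch3 is itself among these pericyte genes, so its fall is built into the choice of cells. In the BMP and TGF-beta pathways the target genes Id3 and Id1 were at 712 and 339 CPM, beside the co-receptor gene Eng and the receptor gene Bmpr2 at 282 CPM. The adrenomedullin receptor subunits Ramp2 and Calcrl were at 518 and 218 CPM, the sphingosine 1-phosphate receptor gene S1pr1 at 99.3 CPM and its exporter gene Spns2 at 79.1 CPM.

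Genes of barrier endothelium were abundant, whereas the capillary, venous and lymphatic lists each held genes at or near 0 beside genes that were present in every mouse. Of 12 barrier genes, 9 were above the other barcodes in every mouse, where 9.54% of all 19731 genes with a UMI were. The summed level of the 12 ranged from 4530 to 6134 CPM. Below Cldn5 in level came Slc7a5, a carrier of large neutral amino acids, at 760 CPM, then Abcb1a at 564 CPM and Mfsd2a, a lysophospholipid carrier gene, at 455 CPM. The efflux pump gene Abcg2 was at 441 CPM, the organic anion carrier gene Slco1a4 at 207 CPM and the glucose carrier gene Slc2a1 at 91.1 CPM. Not every gene of the list was high: Slco1c1, a thyroid hormone carrier gene of brain vessels, was at 1.79 CPM, with a UMI in 5 of 155 cells, and the junction gene Ocln at 7.15 CPM. Plvap had no UMI in the control or NELF-B cKO cells, which allows up to 2.72 and 9.80 CPM, and 10 UMIs in the TDP-43 cKO cells, 8 of them in 1 mouse. The fatty acid carrier gene Cd36 and the venule receptor gene Ackr1 had no UMI in any of the 155 cells, which allows up to 1.03 CPM. The selectin genes Selp and Sele and the lymphatic genes Lyve1 and Ccl21a each had a median of 0 CPM. Of 8 lymphatic genes, Flt4 alone was above the other barcodes in every mouse, at 52 CPM, and Prox1, the lymphatic master factor gene, was at 9.28 CPM. These limits cover counting error only, and genes at 0 were named after their values were seen.

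**Figure D2:**
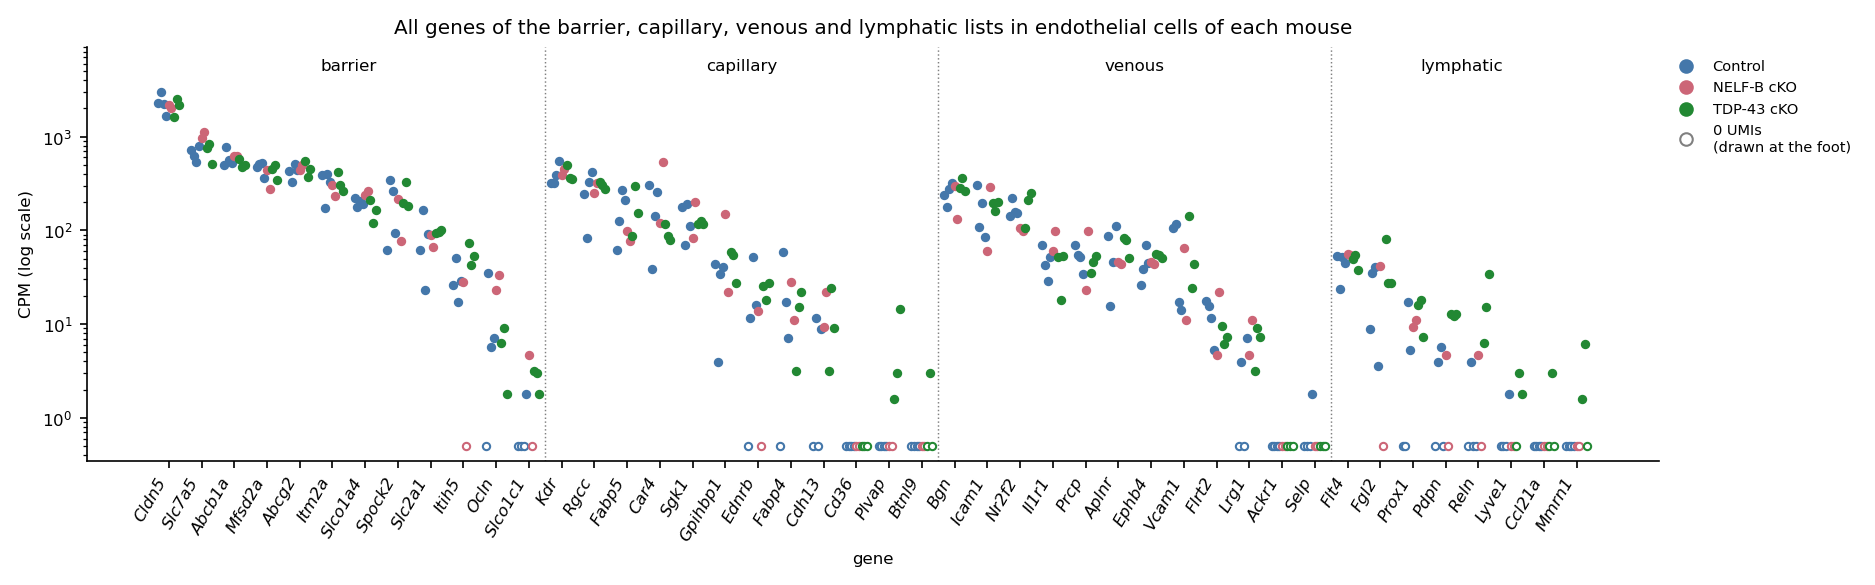
Level of all genes of the barrier, capillary, venous and lymphatic lists, each ordered by its median, in the endothelial cells of each mouse, in CPM on a log axis. Filled points are mice with a UMI and open points at the foot are mice with none: 9 of 12 barrier genes lie above 20 CPM in every mouse, Kdr leads the capillary list and Bgn the venous list, and Cd36 and Ackr1 are open in all 9.

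Genes of capillaries, arteries and veins were each measured in the pooled cells, and other cell types held many of them too. Of the capillary genes, Kdr was at 385 CPM, Rgcc at 303 CPM, the fatty acid binding protein gene Fabp5 at 125 CPM and the carbonic anhydrase gene Car4 at 121 CPM. The highest arterial genes were the chemokine gene Cxcl12 at 751 CPM, Mgp at 309 CPM, Sox17 at 249 CPM and the connexin gene Gja4 at 181 CPM, and those of the venous list were Bgn at 276 CPM, Icam1 at 196 CPM, Nr2f2 at 152 CPM and Il1r1 at 52.4 CPM. Several of these genes were higher in the 60 cells that held at least 3 pericyte genes (Rgs5, Notch3, Pdgfrb and others, described with their own values further on). Fabp5 was at 266 CPM in the 60 cells and at 12.35 CPM in the other 95, Nr2f2 at 236 and 72.5 CPM, Bgn at 343 and 191 CPM, Gja4 at 272 and 109 CPM and Cxcl12 at 982 and 643 CPM. The other named genes were lower in the 60 cells, with Car4 at 106 and 209.9 CPM, Icam1 at 133 and 200.1 CPM, Sox17 at 218 and 289.8 CPM, Kdr at 403 and 463 CPM, Rgcc at 292 and 319 CPM, Mgp at 418 and 426 CPM and Il1r1 at 47.5 and 51.0 CPM. The summed arterial genes ranged from 1151 to 6407 CPM between mice, where control 2 alone lay above 3062 CPM, and the summed venous genes from 714 to 1063 CPM. Venous genes summed higher in stromal, Leydig, pericyte and myoid cells picked by their own markers, at 2219, 1729.7, 1269 and 1136 CPM against a median of 851 CPM in endothelial cells. Arterial genes summed to 2471 CPM in stromal cells against a median of 1824 CPM, and capillary genes to 1550.4 CPM in pericytes against 1238 CPM. Gja5, a connexin of arteries, had a UMI in 9 of the 155 cells, and this gene was picked after its values were seen. These 9 cells came from 4 mice (3, 1, 3 and 2 cells), and their median depth was 28534 UMIs against 13814 for the other 146. All 9 held Gja4, Efnb2, Jag1, Unc5b and Fbln5, which 43.2%, 66.4%, 36.3%, 32.2% and 27.4% of the others held. Sema3g was at 534 CPM in the 9 cells and at 46.1 CPM in the others, Vegfc at 673 and 72.3 CPM and Car4 at 3.98 and 163 CPM. Nr2f2, a transcription factor gene of veins, was in all 9 cells too, at 291 CPM against 157 CPM. Of the 9 cells, 8 held at least 3 pericyte genes, and the smooth muscle genes Acta2 and Myh11 were also in 8 of the 9 cells, at 2519 and 948 CPM against 188 and 112 CPM. Their part in these levels was not tested.

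Matrix and secreted factor genes ranged from abundant to absent. Sparc was at 9850 CPM in the median mouse and Igfbp7 at 7285 CPM, and the basement membrane collagen genes Col4a1 and Col4a2 were at 1151 and 1009 CPM. Of 13 basement membrane genes, 12 were above the other barcodes in every mouse, where 9.54% of all 19731 genes with a UMI were. Of 19 niche and angiocrine factor genes, 9 reached 20 CPM in the median mouse and 6 were above the other barcodes in every mouse, and the median sum of this list, 8348 CPM, was mostly Igfbp7. The stem cell factor gene Kitl, whose receptor is carried by differentiating SG, was at 497 CPM, against 412 CPM in Sertoli cells and 249 CPM in Leydig cells picked by their own markers. Cxcl12 was at 751 CPM, where stromal cells held 378 CPM and Sertoli cells 2.91 CPM, and the platelet growth factor gene Pdgfb, which recruits pericytes, was at 186 CPM. Other niche factor genes were near 0: Gdnf had 1 cell with a UMI and a median of 0 CPM, as had Fgf2 with 9 cells. In the haemostasis list Ece1 was at 200.2 CPM, Entpd1 at 145 CPM, Ptgis at 109 CPM and the nitric oxide synthase gene Nos3 at 87.5 CPM. Of the lipid genes, Pltp was at 464 CPM, Scarb1 at 229 CPM, Cav1 at 197 CPM and Cavin1 at 146 CPM. The glucocorticoid receptor gene Nr3c1 was at 133 CPM, the oestrogen receptor gene Esr1 at 13.9 CPM, and Pgr had no UMI. Of the adhesion genes for leukocytes, Icam2 was at 249 CPM, Icam1 at 196 CPM and Cd47 at 167 CPM.

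Interferon response and MHC class I genes stood above the rest of the testis in each mouse. All 14 interferon response genes and all 9 MHC class I genes were above the other barcodes in every mouse, where 9.54% of all 19731 genes with a UMI were. Ifitm3 was at 1851 CPM, Ly6e at 984 CPM, Ifitm2 at 943 CPM and the GTPase gene Iigp1 at 636 CPM. H2-D1, B2m and H2-K1 were at 1086, 984 and 958 CPM, where macrophages summed higher over the 9 genes, at 5627 CPM against 3445 CPM. Class I genes are a family of close copies, so their single values are less certain. The immediate early genes Fos, Junb, Jun and Egr1 were at 1206, 1098, 836 and 739 CPM, and the summed list was lower than in stromal cells, at 7172 against 15429 CPM. The heat shock genes Hsp90ab1 and Hspa8 were at 2132 and 1223 CPM, and the summed list at 4930 CPM lay below the 5953 CPM of all other barcodes.

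Markers of other cells ranged from absent to abundant. The leukocyte gene Ptprc and the macrophage gene Adgre1 had no UMI in any cell, and the 7 macrophage genes summed to 5.75 to 55.2 CPM per mouse. The 8 MHC class II and leukocyte genes, Ptprc among them, summed to 4.64 to 279 CPM, and Cd74 of that list had a UMI in 27 cells. Leydig genes summed to 7.15 to 764 CPM, with the highest value in control 1. Spermatocyte (SC) genes ranged from 340 to 2689 CPM, with Ldhc at 320 CPM and Meig1 at 311 CPM. Barcodes of 1 to 100 UMIs, which hold RNA free in the suspension, had Ldhc and Meig1 at 4814 and 4130.5 CPM. Sertoli genes summed to 751 to 1865 CPM, most of it from Clu, Wt1 and Ctsl, where free RNA held 933 to 8391 CPM. Stromal genes summed to 110 to 1971 CPM and myoid genes to 121 to 2881 CPM. Haemoglobin genes, with the platelet genes, summed to 1.79 to 27633 CPM, and 12 cells held at least 3 of these 8 genes. In control 2 all 1475 UMIs of Hba-a1 lay in 1 cell. Hba-a1 and Hba-a2 are near-identical copies. Pericyte genes, at 395 to 1468 CPM, are described with the cells that held them.

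Wt1, a transcription factor gene best known from Sertoli cells, was present in the endothelial cells of every mouse. It was at 334, 246, 270 and 320 CPM in controls, 186 and 640 CPM in the NELF-B cKO and 286, 212 and 278 CPM in the TDP-43 cKO. Sertoli cells picked by their own markers held 331 Wt1 CPM, whereas stromal, myoid, Leydig and macrophage cells held 19.0, 6.65, 4.57 and 7.62 CPM and free RNA 13.9 to 98.9 CPM. With every cell thinned to 2000 UMIs, 44.8% of endothelial cells had a Wt1 UMI, against 3.57% of stromal and 0.816% of Leydig cells. The antisense gene Wt1os, which overlaps it, was at 96.7 CPM. Of the 9 other Sertoli genes, Clu, Ctsl, Cst12, Aard and Cst9 were at 379.7, 239.7, 33.4, 31.3 and 27.8 CPM, where Sertoli cells held 5361, 3100.4, 3825, 2766 and 1700.5 CPM. Sox9, Defb36, Rhox5 and Amh were at 6.35, 5.36, 1.79 and 0 CPM, where Sertoli cells held 361, 874, 258 and 42.1 CPM. The part of Sertoli RNA in the Wt1 level was not tested. Cells without any pericyte gene held 358 Wt1 CPM. Wt1 was chosen after its values were seen, from a list of Sertoli genes.

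Endothelial cells differed in how many pericyte genes they held. Of 7 genes of pericytes, the contractile cells that wrap capillaries (Rgs5, Notch3, Pdgfrb, Higd1b, Abcc9, Kcnj8 and Cspg4), 77 cells held none, 16 held 1, and 60 held at least 3, of which 23 held all 7. The limit of 3 genes was set after the counts were seen, and 2 cells held 2 of the genes and 3 held exactly 3. Rgs5 was at 702 CPM in the 60 cells and at 9.1 CPM in the other 95, and Pdgfrb at 153 and 3.3 CPM. Both genes were used for the split, so their difference is built in. The smooth muscle genes Acta2, Tagln and Myh11 were at 655, 542 and 311 CPM in the 60 cells and at 14.0, 25.5 and 4.9 CPM in the 95. Endothelial genes were present on both sides, with Cdh5 at 580 and 540 CPM, Cldn5 at 1961 and 2182 CPM, and the 7 markers of the rule summing to 3528 and 3833 CPM. The 60 cells were deeper, with a median of 23398 UMIs against 7619. Every mouse had both kinds, with 3 of 10, 7 of 10, 6 of 11 and 7 of 23 cells in controls, 8 of 17 and 1 of 11 in the NELF-B cKO, and 6 of 30, 9 of 12 and 13 of 31 in the TDP-43 cKO. No doublet caller was run, and whether the 60 barcodes hold 1 cell or an endothelial cell joined to a mural cell was not tested. Apart from them, 29 barcodes had at least 3 pericyte genes at 0.5% of their UMIs without meeting the endothelial rule.

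**Figure D3:**
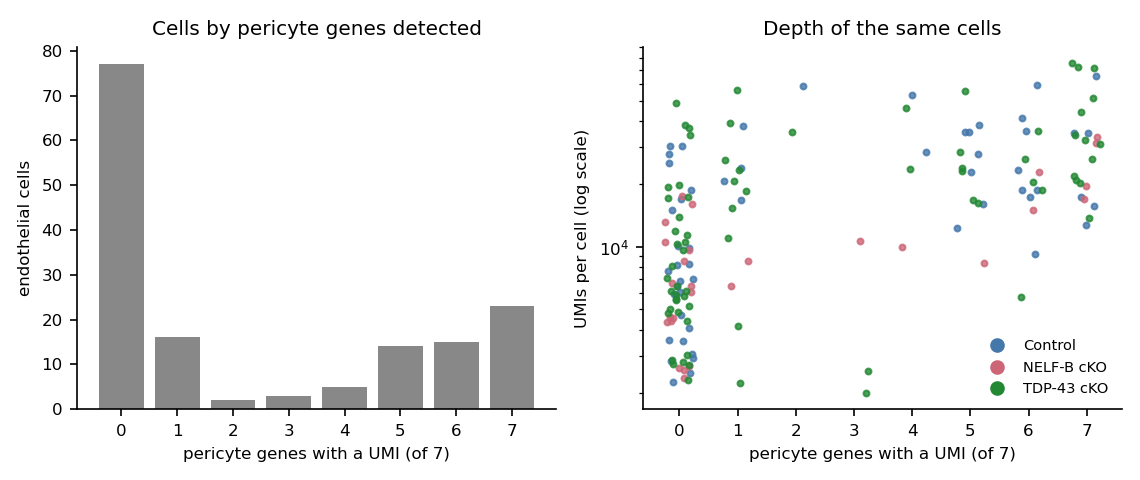
Left, number of endothelial cells (bars) by how many of 7 pericyte genes had a UMI. Right, UMIs of each cell (points, coloured by genotype, log axis) against the same count, with small sideways shifts: 77 cells hold 0 genes, 23 hold all 7, and the cells with more genes are deeper.

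Many proliferation genes at once were found in a minority of the cells, whereas 15 of the 155 cells held none of the list. Of 17 cell cycle genes, 31 cells held at least 10, a limit set after the counts were seen. Top2a was at 264 CPM and Mki67 at 220.4 CPM in these cells, against 39.8 and 33.1 CPM in the other 124. Both genes are in the list used to pick the cells, so this difference is built in. The median depth of the 31 cells was 34197 UMIs against 10404. Spermatogonia genes summed to 452 CPM in the 31 cells and 178 CPM in the others, but 2 of the 31 cells held 207 and 157 of their 513 spermatogonia UMIs, and no other held more than 19. The 31 cells came from all 9 mice, and 17 of them also held at least 3 pericyte genes. Cldn5 was at 1456 CPM in the 31 cells and 2432 CPM in the others, and the tip cell genes summed to 1702 and 1653 CPM.

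Whether loss of NELF-B or TDP-43 in germ cells went with another share of endothelial cells was asked per mouse. Endothelial cells made up 0.131%, 0.118%, 0.215% and 0.471% of the barcodes past the filter in controls, 0.302% and 0.369% in the NELF-B cKO, and 0.760%, 0.397% and 0.898% in the TDP-43 cKO. The groups overlapped, since 1 control mouse lay above both NELF-B cKO mice and above 1 TDP-43 cKO mouse. The means were 0.234% ± 0.164 (SD, n = 4), 0.335% ± 0.0476 (n = 2) and 0.685% ± 0.259 (n = 3). Neither difference from control passed an exact two-sided permutation test, with p = 0.533 for the NELF-B cKO (smallest possible 0.133) and p = 0.114 for the TDP-43 cKO (smallest possible 0.0571). The direction depended on the denominator and on single mice. As a share of the cells with markers of stromal, myoid, pericyte, macrophage, Leydig or Sertoli cells, a denominator chosen after the data were seen, endothelial cells were 2.60% ± 1.25 in controls (n = 4), 1.07% ± 0.605 in the NELF-B cKO (n = 2) and 2.28% ± 1.21 in the TDP-43 cKO (n = 3), with exact permutation p = 0.133 and 0.743. On this denominator both NELF-B cKO mice, at 1.50% and 0.642%, lay below all controls, at 1.65% to 4.35%. Their exact permutation p of 0.133 is the smallest possible for these numbers of mice. The NELF-B cKO lay below control with any mouse left out. The TDP-43 cKO lay 0.326 percentage points below control there, but 0.256 above control without control 4 and 0.163 above without TDP-43 cKO mouse 1. The barcodes past the filter were shallower in controls, with medians of 1754 to 6369 UMIs, than in the TDP-43 cKO, with 14117 to 19254 UMIs. Among barcodes of at least 2000 UMIs, the mean shares were 0.358% ± 0.163 in controls (n = 4), 0.403% ± 0.0254 in the NELF-B cKO (n = 2) and 0.698% ± 0.248 in the TDP-43 cKO (n = 3), with exact permutation p = 0.800 and 0.114. The ratios to control were then 1.13 and 1.95, against 1.43 and 2.93 over all barcodes past the filter. Control 4 had the highest share of the controls, and without it the ratio of the means over all barcodes past the filter was 2.17 in the NELF-B cKO and 4.43 in the TDP-43 cKO. Cells with markers of these other types numbered 403 to 595 per control, 1118 and 1702 in the NELF-B cKO and 617 to 2277 in the TDP-43 cKO. The barcodes past the filter numbered 4879 to 8457 per control, 5638 and 2982 in the NELF-B cKO and 3023 to 3947 in the TDP-43 cKO. The paper reports losses of SC and round spermatids in both cKO lines, and their part in the shares was not tested. A number of cells per library depends on how many survive dissociation and capture, which cannot be told apart here from their number in the testis.

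**Figure D4:**
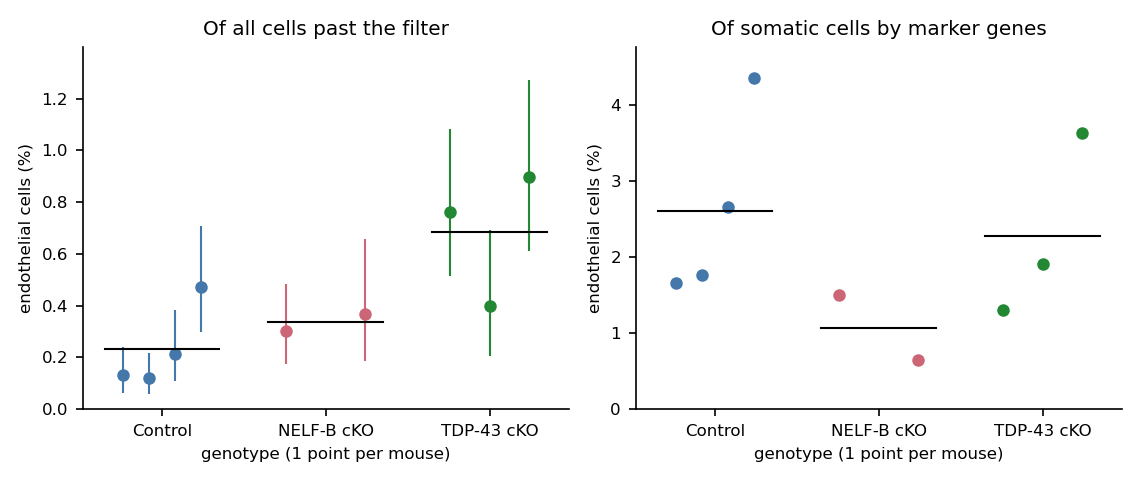
Endothelial cells of each mouse (points) as a percent of all barcodes past the filter (left, vertical lines are exact 95% binomial intervals) and of somatic cells picked by marker genes (right), with black bars at the genotype means. On the left the TDP-43 cKO mean of 0.685% is the highest, and on the right the control mean of 2.60% is.

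Expression in endothelial cells of the cKO mice was compared with control on summed counts per mouse, with the mouse as replicate. Both comparisons share the 4 control mice. Nelfb, the gene targeted in the NELF-B cKO, was at 43.9, 35.2, 57.5 and 55.4 CPM in controls, at 18.6 and 11.03 CPM in the NELF-B cKO and at 49.2, 51.6 and 52.7 CPM in the TDP-43 cKO. Both NELF-B cKO values lay below all others, from 4 and 1 UMIs (5.96% of all genes tested had both below all controls), and the log2 fold change of -1.62 ± 0.52 (SE) had an adjusted p of 0.907 (edgeR). Tardbp was at 66.5 to 74.8 CPM in controls, 64.9 and 55.2 CPM in the NELF-B cKO and 51.6 to 69.8 CPM in the TDP-43 cKO, with a log2 fold change of -0.26 ± 0.25 in the latter (edgeR adjusted p = 1). Where the counted transcript ends lie relative to the deleted exons was not examined, so whether these values follow the deletion was not tested. Free RNA held Nelfb at 17.6 to 29.1 CPM in controls and at 2.78 to 5.53 CPM in the NELF-B cKO, and its part in the difference was not tested.

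Genes counted as called at adjusted p values below 0.01 when they had also moved by 1 or more on the log2 scale. No gene was called in either comparison, so that 0% of the 6355 genes tested were called (edgeR quasi-likelihood test). DESeq2 called 0 genes in the NELF-B cKO, and 2 higher and 36 lower genes in the TDP-43 cKO. In the NELF-B cKO, 162 genes were higher (2.55%) and 130 lower (2.05%) at an unadjusted p under 0.05, and in the TDP-43 cKO 152 were higher (2.39%) and 232 lower (3.65%). The 5 genes of lowest p among the higher were 9530026P05Rik, Fosb, Ptpn9, Gphn and Cdk8, with log2 fold changes of 1.11 to 2.42 and an adjusted p of 0.587 each. Fosb, an immediate early gene, was at 164 to 281 CPM in controls and 612 and 507 CPM in the NELF-B cKO. Ptpn9 was at 529 CPM in 1 NELF-B cKO mouse and at 44.1 CPM in the other, within the control range of 35.1 to 86.0 CPM. Of its 114 UMIs in the first, 87 lay in 1 cell, the one with the lowest pan-endothelial level. Among the lower, Dbndd2, Ociad1, E2f3, Gapdh and Spaca6 had log2 fold changes of -2.94 to -0.94 and adjusted p of 0.612 to 0.907. Gapdh, a glycolysis gene, was at 668 to 1136 CPM in controls and at 561 and 486 CPM in the NELF-B cKO.

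In the TDP-43 cKO, 3 genes were higher and 18 lower at an adjusted p under 0.05, 0.0472% and 0.283% of those tested (edgeR). The 3 higher genes are expressed by stromal cells, though not by them alone. Cyp26b1, which encodes an enzyme that breaks down retinoic acid, was at 0, 7.82, 11.5 and 7.15 CPM in controls, at 37.1 and 0 CPM in the NELF-B cKO and at 128, 48.5 and 114 CPM in the TDP-43 cKO. The TDP-43 cKO mice all lay above the controls, as they did for 3.15% of all genes tested, with a log2 fold change of 3.70 ± 0.54 (SE, edgeR adjusted p = 0.0171). The collagen gene Col1a1 was at 5.75 to 35.2 CPM in controls and 94.5 to 152 CPM in the TDP-43 cKO (log2 fold change 2.31 ± 0.40, edgeR adjusted p = 0.036), and Nrk, a kinase gene, at 14.3 to 28.8 and 60.7 to 136 CPM (2.24 ± 0.40, edgeR adjusted p = 0.036). Serping1 and Dcn followed with log2 fold changes of 1.62 and 2.36 and an adjusted p of 0.0627 each (edgeR). In stromal cells picked by markers, of which Col1a1 is one, Cyp26b1, Col1a1 and Nrk were at 1133, 1066 and 831 CPM. Myoid cells held the same genes at 584, 327 and 79.9 CPM, and Leydig cells at 27.9, 12.6 and 128 CPM. The 7 stromal genes as a list, which holds Col1a1 and Dcn, summed in the endothelial cells to 354 to 672 CPM in controls, 110 and 1160 CPM in the NELF-B cKO and 1338 to 1971 CPM in the TDP-43 cKO. The stromal sum was 1402 CPM in the 60 cells with at least 3 pericyte genes, 692 CPM in the other 95 and 24.0 CPM in the 77 with none. In free RNA Cyp26b1 was at 2.09 to 5.76 CPM in controls and 8.81 to 81.7 CPM in the TDP-43 cKO. Without the cells that also held markers of another cell type, the log2 fold change of Col1a1 was 1.16 (edgeR adjusted p = 0.734), that of Nrk 1.46 (edgeR adjusted p = 0.244) and that of Cyp26b1 2.88 (edgeR adjusted p = 0.0482). With the 60 cells of at least 3 pericyte genes left out, these 3 genes fell below the count filter and could not be called, and Dcn had a log2 fold change of 2.39 (edgeR adjusted p = 0.475). Of the mice left out in turn, controls 1 and 3 and TDP-43 cKO mice 1 and 3 each left 0 genes past an adjusted p of 0.05, TDP-43 cKO mouse 2 left 2 higher and 1 lower, and the other mice left 1 to 17 higher and 24 to 69 lower.

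The 18 lower genes were Spink2, Dkkl1, Fam229b, Crisp2, Pgam2, Gm5617, AA467197, 4922502D21Rik, Cox8c, Mesp1, Phf7, Hspb9, Spata4, Spata33, Rbakdn, Cetn1, Catsperz and Fabp9. Several of them are known from late SC and spermatids, among them Crisp2, an acrosomal protein gene, Dkkl1 and Catsperz, a subunit gene of the sperm calcium channel. Spink2, a protease inhibitor gene of the acrosome, was at 141, 58.6, 63.3 and 44.7 CPM in controls, 97.4 and 22.1 CPM in the NELF-B cKO and 0, 3.03 and 3.64 CPM in the TDP-43 cKO (log2 fold change -4.86 ± 0.72, edgeR adjusted p = 0.0171). Over the 18 genes the log2 fold changes ran from -5.38 to -2.25, and all TDP-43 cKO mice lay below all controls for each gene, as they did for 4.14% of all genes tested. The 18 were chosen by their p in this comparison, so that little overlap of the mice is built into the choice. Summed, the 18 genes were at 4121, 1716, 2457 and 1397 CPM in the endothelial cells of controls, 2264 and 530 CPM in the NELF-B cKO and 77.7, 364 and 302 CPM in the TDP-43 cKO. Free RNA of the same libraries held 35475, 26094, 29921 and 27903 CPM, then 27269 and 5210 CPM, then 736, 7314 and 5395 CPM. Each of the 18 genes was higher in the free RNA of all controls than in the endothelial cells of any of them. The share of all genes tested for which this held was not counted. Each was also higher in the free RNA of all controls than in that of any TDP-43 cKO mouse, which held for 15.4% of all genes tested. The part of free RNA in the 18 genes was not tested.

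**Figure D5:**
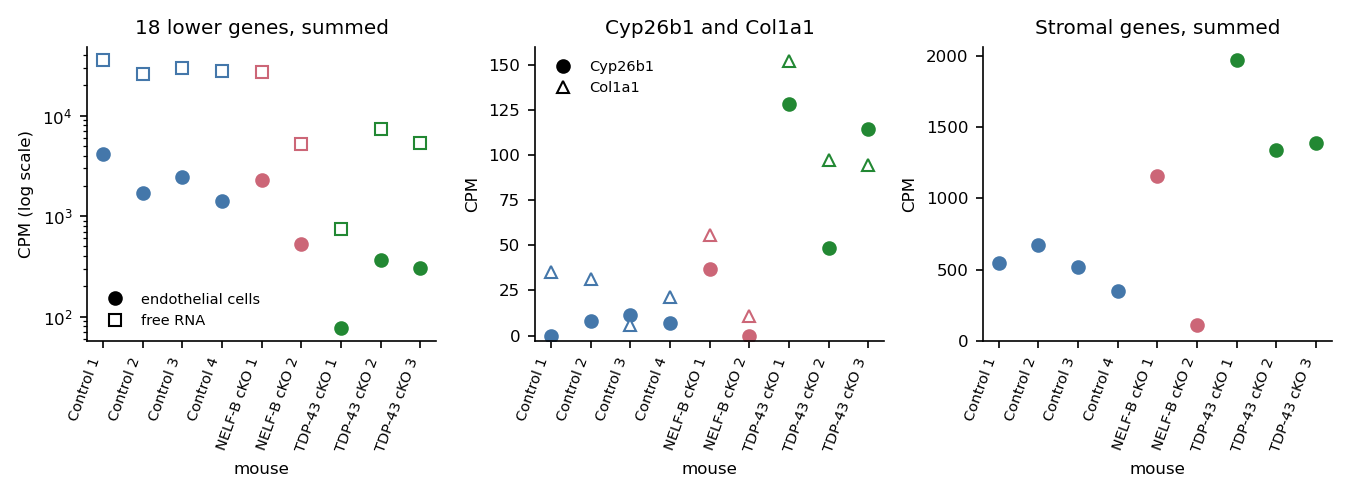
Level per mouse, coloured by genotype: left, the 18 lower genes summed in endothelial cells (filled) and in free RNA (open squares), in CPM on a log axis; middle, Cyp26b1 and Col1a1 in endothelial cells, in CPM; right, the 7 stromal genes summed in endothelial cells, in CPM. On the left both symbols fall in the TDP-43 cKO, from 1397 or more to 364 or less in the endothelial cells; in the other panels the 3 TDP-43 cKO mice are the highest.

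No vascular gene list held a gene past an adjusted p of 0.05 in either comparison (edgeR). Of all 6355 genes tested, 0 passed in the NELF-B cKO, and 0.0472% passed as higher and 0.283% as lower in the TDP-43 cKO. A count of 0 therefore does not set these lists apart. Of 29 pan-endothelial genes tested, 1 was lower at an unadjusted p under 0.05 in the NELF-B cKO and 0 were in the TDP-43 cKO. Of all genes tested, 2.05% and 3.65% were lower at this limit. The pan-endothelial medians were 0.01 and 0.00 log2 against -0.02 and 0.00 for all genes. The 10 barrier genes tested had medians of -0.20 and 0.06, the 19 transcription factor genes -0.10 and 0.10, the 13 junction genes -0.12 and -0.11, and the 13 arterial genes -0.83 and -0.14. The arterial medians rested on control 2, whose arterial genes summed to 6407 CPM against 1151, 1824 and 1365 CPM in the other controls, 2347 and 1765 CPM in the NELF-B cKO and 1718, 2649 and 3062 CPM in the TDP-43 cKO. Without control 2, the medians of the 11 arterial genes tested were 0.20 and 0.89. The 14 immediate early genes had medians of 0.20 in the NELF-B cKO and 0.52 in the TDP-43 cKO, with 1 and 6 genes higher at an unadjusted p under 0.05, which 2.55% and 2.39% of all genes tested passed in this direction, and 0 at an adjusted p under 0.05. Their sum was 4007 to 7962 CPM in controls, 6466 to 7172 CPM in the NELF-B cKO and 7552 to 9281 CPM in the TDP-43 cKO, so that controls overlapped both. Immediate early genes were at 342 to 477 CPM in the free RNA of controls, 794 to 4022 CPM in that of the NELF-B cKO and 1374 to 4216 CPM in that of the TDP-43 cKO, and stromal genes in the endothelial cells went from 354 to 672 CPM in controls to 1338 to 1971 CPM in the TDP-43 cKO. Their part in the immediate early values was not tested. The 15 cell cycle genes tested had medians of -0.64 and -0.95, with 0 and 3 genes lower at an unadjusted p under 0.05, which 2.05% and 3.65% of all genes tested passed in this direction. Their sum was 685, 536, 1766 and 1808 CPM in controls, 997 and 1225 CPM in the NELF-B cKO and 1022, 998 and 565 CPM in the TDP-43 cKO, so that controls lay on both sides of each cKO group, and 1 cell held 201 of the 307 cell cycle UMIs of control 3. Without control 4, the medians of the 11 cell cycle genes tested were 0.00 and -0.32. The 14 interferon response genes had medians of 0.10 and -0.44. Over these lists only the stromal list held a gene past an adjusted p of 0.05, Col1a1, in the TDP-43 cKO, where the median of its 6 tested genes was 1.35.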

How the data were processed

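Whole testes of 9 mice were dissociated and sequenced with the 10x 3′ v3.1 kit. Per the file headers and the study's methods, the authors aligned the reads to mm10 with Cell Ranger 7.0.0 (demultiplexed with 6.1.1) and deposited raw UMI counts for every barcode, from 119203347 to 159407373 UMIs per library. Barcodes with more than 1000 genes and under 10% mitochondrial UMIs were kept. No doublet caller and no correction for free RNA were run. Endothelial cells, gene lists and comparisons were chosen with earlier results of these data known. Comparator cells held at least 3 marker genes of their type at 0.5% of UMIs or more. UMIs of endothelial cells were summed per mouse, and 6355 genes kept by filterByExpr were tested with edgeR 4.0.16 (TMM, quasi-likelihood F test, all 9 mice in 1 fit, Benjamini-Hochberg adjustment), with DESeq2 1.42.0 in R 4.3.3 as an alternative. In simulated counts with 200 genes changed by a log2 fold change of 2, this fit recovered 76.5% in the NELF-B cKO comparison (5939 genes) and 97.5% in the TDP-43 cKO comparison (5883 genes). These shares hold for the simulated counts only and do not show that changes of this size were absent. The real sums also held genes whose UMIs lay mostly in 1 cell, such as Ptpn9 in NELF-B cKO mouse 1. Shares of cells were compared with exact permutation tests over mice, with intervals (Clopper-Pearson, 95%) and limits from 3 counts that cover counting error only. Nothing in the labels says that the mice of a genotype came from separate litters. The text names the 7 markers, the 20 most enriched genes, the 4 highest genes of a list, and, as fewer than 10 genes were called, the 5 of lowest p in each direction. Of 393 listed genes, 392 were in the files. Genes at 0, Gja5 and Wt1 were named after their values were seen. Alternatives covered the test, size factors, count filter, samples in the fit, replicate block, each mouse left out, stricter membership, cells with other markers left out and the call threshold. One result is not reported here.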

Additional observations from a re-analysis of the deposited data

Results flagged for a closer look

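Among 89 values checked over the 4 control mice, 8 had 1 mouse that stood apart from the other 3, where chance flags about 1 in 20. Control 2 had the highest Tek, at 430.0 CPM against 219 to 246 CPM in the other controls, and the highest Tm4sf1, at 1259 CPM against 742 to 782 CPM. In the same mouse the arterial genes summed to 6407 CPM against 1151 to 1824 CPM, and 3 of its 10 endothelial cells held the artery gene Gja5. Its myoid genes were the highest of the controls as well, at 2881 CPM against 158 to 886 CPM. Its 2 cells with myoid markers held 456 and 493 arterial UMIs, where its other 8 cells held 9 to 270. Its platelet and red cell genes summed to 25238 CPM against 1.79 to 1680 CPM, with 6455 of the 6456 UMIs in 1 cell, and its heat shock genes to 3534 CPM against 4787 to 4938 CPM. Control 1 had the lowest Cd93, at 475 CPM against 586 to 598 CPM. Its spermatogonia genes summed to 290.0 CPM against 121 to 129 CPM, and its Leydig genes to 764 CPM against 7.15 to 70.4 CPM, where 1 cell held 84 of its 87 Leydig UMIs. Both mice had 10 endothelial cells each.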

How the results depend on the processing

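With 10 to 31 cells per mouse, most genes were below the count filter, and calls moved with the fit. NELF-B cKO calls went from 0 to 13 higher and 8 lower with no filter on low counts; for TDP-43 cKO that gave 42 higher and 142 lower, DESeq2 2 and 36, the 2 groups alone 2 and 4, and an adjusted p under 0.05 of any size 3 and 18. With 1 mouse left out, calls ranged from 0 to 3 higher and 0 to 0 lower in the NELF-B cKO and from 0 to 2 higher and 0 to 4 lower in the TDP-43 cKO; the 3 calls came without NELF-B cKO mouse 2, which left 1 mouse whose spread was assumed to be that of the other groups, and the 2 and 4 came without either NELF-B cKO mouse. At an adjusted p under 0.05, the TDP-43 cKO had 0 calls without control 1 or 3 or without TDP-43 cKO mouse 1 or 3, and 0 under stricter membership. The replicate block gave 0 calls in both comparisons, and at an adjusted p under 0.05 1 higher and 13 lower in the TDP-43 cKO. The deviations of same-numbered mice had correlations of -0.156 to 0.0881. Any mouse had equal and opposite correlations with the 2 NELF-B cKO mice, so those pairs cannot show whether mice were paired. Between same-numbered controls and TDP-43 cKO mice the correlations were 0.0881, -0.0588 and -0.0189. With 1 mouse left out, the log2 fold change of Ptpn9 in the NELF-B cKO ranged from -0.42 (without NELF-B cKO mouse 1) to 3.15, and that of Nelfb in the TDP-43 cKO from -0.085 (without control 2) to 0.16. Nelfb there was -0.042 under stricter membership and -0.13 without cells of other markers. Against somatic cells, the share differed from control by -1.53 percentage points in the NELF-B cKO (-1.96 to -0.952 with 1 mouse left out) and -0.326 in the TDP-43 cKO (-0.9997 to 0.256), where the share of all barcodes differed by 0.101 and 0.451. Lymphatic genes summed to 75.1 CPM under stricter membership. With cells of at least 3 pericyte genes left out, chosen after the data were seen, venous genes summed to 720.0, tip cell genes to 1276, basement membrane genes to 11715, lipid genes to 1195, immediate early genes to 5107, pericyte genes to 17.5, myoid genes to 62.2, stromal genes to 227, platelet and red cell genes to 15.6 and spermatid genes to 136 CPM. The cause of these changes was not tested.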
